A study of Mus musculus with 10 samples.

Results

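The microRNA genes that lie between Meg3 and Dio3 on mouse chromosome 12 were followed in the hypothalamus of mice carrying a C26 colon adenocarcinoma. Members were all probe sets paired with exactly 1 gene whose symbol starts with Mir plus a digit and whose RefSeq gene start falls between those of Meg3 and Dio3. This gave 36 probe sets for 36 genes, of 35556 probe sets in all. RefSeq places 61 microRNA genes in the interval. A further 6 of them were paired only with probe sets that also name another gene, and these, like the genes without a named probe set, are not analysed here as members.

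Hypothalamic total RNA was hybridised to whole-transcript arrays, 1 array per sample. The tumour-bearing group was 5 male CDF1 mice, a BALB/c by DBA/2 cross, which had received 1000000 C26 cells under the skin of the flank in 0.2 ml of buffered salt solution. The control group was 3 male CDF1 mice sham-injected with the same volume without cells. All mice were 10 to 11 weeks old and the tissue was taken on day 20. A further array held RNA pooled from 5 tumour-bearing mice, and another held RNA pooled from 4 controls. Whether the pools hold RNA of the individually arrayed mice is unknown here, so the pools entered no main test. The comparison addresses how hypothalamic gene expression differs in mice with a cachexia-inducing tumour. All levels are log2 RMA values, an array normalization that sets every array to a common distribution. The median over all probe sets lay between 5.30 and 5.32 for every single mouse, at 5.28 for the tumour-bearing pool and at 5.27 for the control pool. All 11 hypothalamic markers looked at, among them Sim1, Avp, Oxt and Hcrt, passed the filter on low values.

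The interval is part of the imprinted Dlk1-Dio3 domain. The long non-coding RNAs Meg3, Rian and Mirg and the microRNAs are made from the maternally inherited chromosome, whereas the protein-coding genes Dlk1, Rtl1 and Dio3 are made from the paternal one. MicroRNAs are cut as hairpins from long primary transcripts by Drosha and Dgcr8, exported by Xpo5, trimmed by Dicer1 and loaded into Argonaute proteins. The mature strand then represses messenger RNAs that pair with its seed. In brain the cluster is expressed mainly in neurons, where Mef2 transcription factors drive it with activity, and loss of the miR-379 to miR-410 stretch in mice disturbs metabolism of the newborn. The arrays were labelled from total RNA isolated on columns, and whether a member's signal came from primary transcript, hairpin or mature microRNA was not tested.

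The 5 members that passed the test below make the following mature microRNAs. They are shown because the seed decides which messenger RNAs a microRNA can pair with. Sequences are from RefSeq (GRCm38.p6), written 5′ to 3′, with the seed (bases 2 to 8) in capitals. All 36 members matched an entry, with 68 mature sequences and 66 different seeds.
miR-379-5p: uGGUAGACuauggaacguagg
miR-379-3p: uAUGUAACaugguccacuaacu
miR-411-5p: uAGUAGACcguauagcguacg
miR-411-3p: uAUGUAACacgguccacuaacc
miR-382-5p: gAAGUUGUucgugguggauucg
miR-382-3p: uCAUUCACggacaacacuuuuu
miR-134-5p: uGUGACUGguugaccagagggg
miR-134-3p: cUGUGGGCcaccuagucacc
miR-369-5p: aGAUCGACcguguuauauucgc
miR-369-3p: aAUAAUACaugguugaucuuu
The 3p strands of Mir379 and Mir411 share the seed AUGUAAC and are equal at 20 of 22 positions. Their 5p strands are equal at 14 of 21 positions and differ within the seed by G2A, with the miR-379-5p base first and positions counted from 1 at the 5′ end. Among the 68 sequences, the only other seed held by more than 1 member was UGGAUAU, in the 5p strands of Mir376b and Mir376c. Mir376c, Mir485, Mir487b and Mir539 had only 1 strand listed, so seeds of their other strands were not compared.
miR-376b-5p: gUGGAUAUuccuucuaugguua
miR-376c-5p: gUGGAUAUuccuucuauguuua
RefSeq places the hairpins of the 5 members on the plus strand of chromosome 12 in GRCm38.p6. Mir379 lies at 109709060 to 109709125, Mir411 at 109710175 to 109710256, Mir382 at 109733771 to 109733846, Mir134 at 109734139 to 109734209 and Mir369 at 109743418 to 109743496. Mir369 lies within the bounds of the Mirg gene, and the other 4 lie between Rian and Mirg. Each of the 5 hairpins was 58.4% to 73.4% identical to its nearest other member, and the most alike hairpins, those of Mir376b and Mir376c, were 80.7% identical. The files do not give probe sequences, so signal shared between members was not tested.

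A probe set was tested if 3 or more of the 8 single mice had a level over 20 in linear units, which is 4.32 in log2 units. Of the 36 members 34 were tested, and Mir299a and Mir376c were not. In tumour-bearing mice 5 of the 34 tested members rose and 0 fell at a limma adjusted p below 0.05, where the adjustment ran over all 22837 tested probe sets. The share of all tested probe sets called higher was 0.0569%, or 13 probe sets, and 0 were called lower. At an unadjusted p below 0.05, 23 of the 34 members were higher and 0 lower, against 4.71% higher and 5.82% lower over all tested probe sets. The 23 include Mir376a, which passed the filter through tumour-bearing mice alone; the count was 21 of 34 with lower values raised to the filter level, and 21 of 32 when all 8 arrays had to exceed it. The difference was above 0 in 33 of the 34, against 48.6% of all tested probe sets, and its median was 0.27, against 0.00 over all. For 20 of the 34 members every tumour-bearing mouse exceeded every control, against 3.28% of all tested probe sets, and for 0 every one was below, against 4.17%. Because the members were chosen with earlier results of these data known, these counts describe the cluster and are not a test of it.

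**Figure D1:**
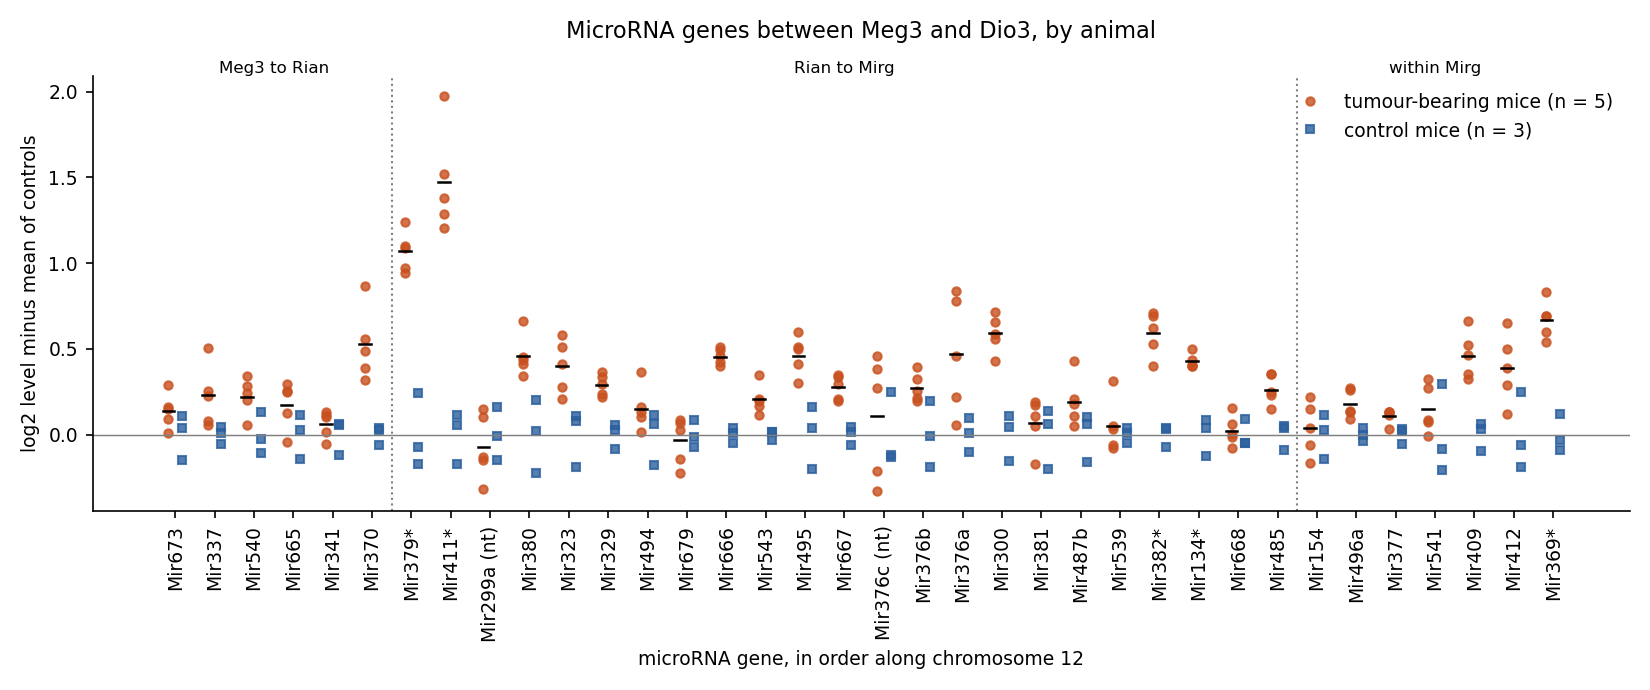
Each point is the log2 level of 1 mouse minus the mean of the 3 controls, for the 36 microRNA genes in their order along chromosome 12 (circles, 5 tumour-bearing mice; squares, 3 controls; black bars, tumour-bearing mean). Stars mark the 5 genes with a limma adjusted p below 0.05, nt marks the 2 genes not tested, and dotted lines separate the stretches up to the end of Rian, between Rian and Mirg, and within Mirg. The differences of Mir379, at 1.07, and Mir411, at 1.47, stand above the rest, and Mir382, Mir134 and Mir369 lie at 0.59, 0.43 and 0.67.

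Mir411 had log2 levels of 6.02, 6.71, 5.94, 6.25 and 6.11 in tumour-bearing mice 1 to 5, against 4.85, 4.56 and 4.79 in controls 1 to 3. The groups were well apart, with tumour-bearing mouse 2 the highest. The mean was 6.20 ± 0.30 (SD, n = 5) in tumour-bearing mice and 4.73 ± 0.15 (SD, n = 3) in controls. Mir411 rose 2.77-fold, a log2 difference of 1.47 ± 0.17 SE (limma adjusted p = 0.0308).

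Mir379, the first member beyond Rian and the neighbour of Mir411, had log2 levels of 6.0, 6.30, 6.16, 6.15 and 6.03 in tumour-bearing mice, against 4.89, 5.30 and 4.99 in controls. Its groups did not overlap either, and the highest mouse was again tumour-bearing mouse 2. It rose 2.10-fold, with a log2 difference of 1.07 ± 0.11 SE (limma adjusted p = 0.0213). In mouse liver, miR-379 is known as a glucocorticoid-responsive microRNA that affects lipid handling.

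Mir369, the member of the interval nearest to Dio3, had log2 levels of 6.73, 6.96, 6.82, 6.82 and 6.67 in tumour-bearing mice, against 6.10, 6.25 and 6.04 in controls. It rose 1.59-fold, with a log2 difference of 0.67 ± 0.08 SE (limma adjusted p = 0.0308). In human cells miR-369-3p is known to act on the AU-rich element of tumour necrosis factor messenger RNA.

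Mir382 had log2 levels of 8.32, 8.63, 8.45, 8.54 and 8.61 in tumour-bearing mice, against 7.96, 7.85 and 7.95 in controls. It rose 1.51-fold, with a log2 difference of 0.59 ± 0.07 SE (limma adjusted p = 0.0308). Its neighbour Mir134, whose microRNA restrains dendritic spine growth through Limk1 in rat hippocampal neurons, had log2 levels of 9.09, 9.18, 9.08, 9.08 and 9.12 in tumour-bearing mice. The controls had 8.56, 8.77 and 8.72. Mir134 rose 1.34-fold, with a log2 difference of 0.43 ± 0.05 SE (limma adjusted p = 0.0308), and its tumour-bearing values had the lowest SD of these 5 genes, 0.04. For all 5 genes every tumour-bearing mouse lay above every control, and mouse 2 was the highest of its group.

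**Figure D2:**
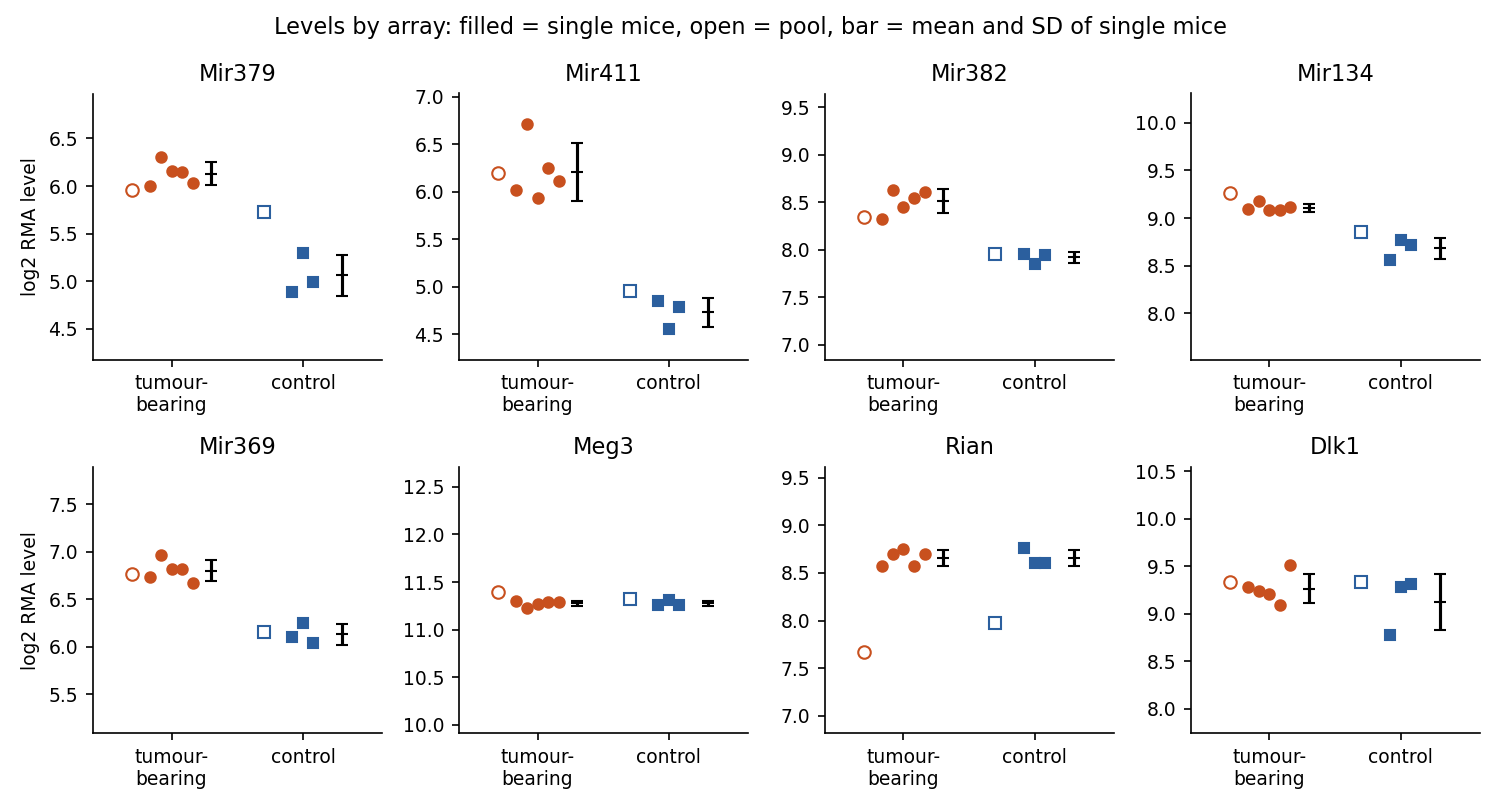
Log2 RMA levels are shown by array for the 5 microRNA genes that rose and for Meg3, Rian and Dlk1; every panel spans the same 2.8 log2 units, but the axes start at different levels. Filled circles are single tumour-bearing mice, filled squares single controls, open symbols the 2 pools, and the bars give the mean and SD of the single mice. The groups are apart for the 5 microRNA genes and overlap for Meg3, Rian and Dlk1, and both pools lie below the single mice for Rian.

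Mir666 and Mir300 lay just outside the threshold, both with a limma adjusted p of 0.0597. Mir300 had log2 levels of 7.16, 6.87, 7.03, 7.0 and 7.10 in tumour-bearing mice, against 6.55, 6.29 and 6.49 in controls, a difference of 0.59 ± 0.09 SE. Mir666 had 6.49, 6.47, 6.40, 6.38 and 6.44 in tumour-bearing mice, against 5.93, 5.99 and 6.02 in controls, a difference of 0.45 ± 0.06 SE. For both, the groups did not overlap, and the highest mouse was tumour-bearing mouse 1.

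The members fall into 3 stretches by their RefSeq order. From Meg3 to the end of Rian, 6 members were tested, 0 were called and 3 had an unadjusted limma p below 0.05, all higher. Mir370, whose microRNA is known to target the fatty acid transport enzyme gene CPT1A in human liver cells, differed most, with log2 levels of 5.49, 5.11, 5.01, 5.18 and 4.94 in tumour-bearing mice. The controls had 4.65, 4.56 and 4.66, a difference of 0.52 ± 0.14 SE (limma adjusted p = 0.276). Mir337 and Mir540 differed by 0.23 and 0.22, Mir665 and Mir673 by 0.17 and 0.14, and Mir341 by 0.06. Without control 1 the difference was 0.10 for Mir665, 0.06 for Mir673 and 0.00 for Mir341. For Mir341 the log2 level was 10.08 ± 0.08 (SD, n = 5) in tumour-bearing mice and 10.02 ± 0.10 (SD, n = 3) in controls.

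Between Rian and Mirg 21 members were tested, of which 4 rose and 15 had an unadjusted limma p below 0.05, all higher. The groups did not overlap for 14 of these 21. Apart from those named above, the differences were 0.46 for Mir380 and for Mir495, 0.40 for Mir323, 0.29 for Mir329, 0.28 for Mir667 and for Mir376b, and 0.26 for Mir485. Mir667 had log2 levels of 8.74, 8.59, 8.73, 8.60 and 8.69 in tumour-bearing mice, against 8.33, 8.41 and 8.44 in controls (limma adjusted p = 0.135), without overlap. MiR-485 is known to restrain the synaptic vesicle protein gene Sv2a in rat hippocampal neurons. Without control 1 Mir376b differed by 0.18. Mir543, Mir487b and Mir494 differed by 0.21, 0.20 and 0.15; without control 3 Mir487b differed by 0.12 and Mir494 by 0.07. Mir381, Mir539 and Mir668 differed by 0.07, 0.05 and 0.03, and Mir679 by -0.04, the only tested member below 0. Mir494 and these 4 took both signs among the settings tried: Mir494 was -0.04 with a midbrain score as a covariate, Mir381 -0.03 without control 1, Mir539 -0.02 and Mir668 -0.01 without tumour-bearing mouse 3, and Mir679 0.01 without control 1 or tumour-bearing mouse 2. Genes beside each other could thus differ in size: Mir539, Mir382, Mir134 and Mir668 follow one another among the members, with differences of 0.05, 0.59, 0.43 and 0.03. For Mir539 the log2 level was 7.32 ± 0.15 (SD, n = 5) in tumour-bearing mice and 7.27 ± 0.05 (SD, n = 3) in controls. These neighbours were picked after their values were seen, and the differences between them were not tested.

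Within the bounds of Mirg 7 members were tested, of which 1, Mir369, rose and 5 had an unadjusted limma p below 0.05, all higher. Mir409 had log2 levels of 6.19, 6.13, 5.99, 6.33 and 6.02 in tumour-bearing mice, against 5.73, 5.57 and 5.70 in controls, a difference of 0.47 ± 0.10 SE (limma adjusted p = 0.191). Mir412, between Mir409 and Mir369, differed by 0.39, and tumour-bearing mouse 5, at 6.14, lay below control 1, at 6.27. Mir496a, Mir541, Mir377 and Mir154 differed by 0.18, 0.15, 0.11 and 0.03. Mir541 differed by 0.29 without control 1 and 0.04 without control 3, and Mir154 took both signs, from -0.04 without control 2 to 0.09 without control 3. Across the 34 tested members, Spearman's rho of the difference with the order along the chromosome was -0.05 and with the mean log2 level -0.25. Over the 33 of them with a hairpin in the table it was -0.09 with the hairpin's GC content. The members share the same 8 arrays, so these are descriptions only.

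A few members lay near the filter level. Mir495 had 2 of 3 controls below it and all 5 tumour-bearing mice above it, so raising the lower values to that level gave a difference of 0.31 in place of 0.46. Mir376a passed through tumour-bearing mice 2, 3 and 4 alone, with all 3 controls below the level, and its difference of 0.47 became 0.17. Among the members not tested, Mir376c averaged a log2 level of 3.81 ± 0.36 (SD, n = 5) in tumour-bearing mice and 3.70 ± 0.22 (SD, n = 3) in controls, and Mir299a 3.22 ± 0.19 (SD, n = 5) and 3.29 ± 0.15 (SD, n = 3). All 8 values of both genes were below the level. When only probe sets above the level on all 8 arrays were tested, 32 members remained, the same 5 rose and 31 of the 32 differences were above 0.

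The long transcripts of the domain were set beside the microRNA genes. Meg3, which opens the interval, had log2 levels of 11.30, 11.23, 11.27, 11.29 and 11.29 in tumour-bearing mice, against 11.26, 11.31 and 11.26 in controls. Its groups overlapped, with a difference of 0.00 (95% confidence interval -0.07 to 0.07, limma adjusted p = 0.999). Rian, a host of small nucleolar RNAs, had 8.57, 8.70, 8.75, 8.57 and 8.70 in tumour-bearing mice, against 8.76, 8.61 and 8.61 in controls, a difference of -0.01 (95% confidence interval -0.14 to 0.13). The log2 ratio of each of the 5 risen members to Meg3, and likewise to Rian, exceeded every control in 5 of 5 tumour-bearing mice. For Mir411 over Rian it averaged -2.45 in tumour-bearing mice and -3.93 in controls, a difference of 1.48, and for Mir134 over Rian 0.45 and 0.02, a difference of 0.43. Each of these 10 ratios gave a two-sided exact permutation p of 0.0179 over the 56 splits of the mice, the smallest possible, and 0.0179 after Benjamini-Hochberg adjustment over the 10. The members had been picked for their difference and already separated the groups, while Meg3 and Rian hardly differed. This p was thus largely fixed in advance. It is not independent of the calls above and adds no support to them.

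Dlk1, an imprinted gene of the paternal chromosome that encodes a Notch-like membrane protein, differed by 0.14 (95% confidence interval -0.14 to 0.43). Without control 1, whose log2 level was 8.78 against 9.28 and 9.31 in the other controls, the difference was -0.03. Dio3, which encodes the enzyme that inactivates thyroid hormone, lay below the filter level on all 8 arrays. Beyond the domain, Begain and Wdr25 differed by 0.01 and 0.00, Begain by -0.11 without control 1. Rtl1 and Mirg had no probe set paired with them alone and are not analysed here. The 7 probe sets that pair a microRNA of the interval with another gene were all tested, 0 were called, 6 were above 0 and the median difference was 0.27.

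Of 19 genes of microRNA processing, all tested, 0 were called, 1 was higher and 1 lower at an unadjusted limma p below 0.05, and the median difference was 0.01. Those with the largest differences were Dgcr8, the RNA-binding partner of Drosha, at 0.13 (limma adjusted p = 0.468) and Ago1, an Argonaute, at -0.13 (limma adjusted p = 0.413). Dgcr8 had log2 levels of 7.30, 7.24, 7.29, 7.32 and 7.36 in tumour-bearing mice, against 7.28, 7.10 and 7.13 in controls. Drosha differed by -0.03, Xpo5 by 0.05 and Dicer1 by 0.04.

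Of 10 regulators and reported neuronal targets of the cluster, all tested, 0 were called, and the median difference was -0.03. Mef2c, a transcription factor of the family that drives the cluster in rat neurons, differed by 0.14 ± 0.15 SE, by 0.29 without control 1, by 0.04 without tumour-bearing mouse 1 and by -0.12 with a score of midbrain markers as a covariate. Limk1, a kinase of the actin cytoskeleton and a target of miR-134 in rat, differed by -0.13 ± 0.09 SE and by -0.03 without control 3. Pum2, a repressor of translation and another target of miR-134 in rat neurons, differed by -0.09 ± 0.05 SE. Nr3c1, the glucocorticoid receptor, differed by 0.02 ± 0.06 SE, by 0.07 without control 1 and by -0.04 without control 2. Arc, an activity-induced synaptic gene, was lower at an unadjusted limma p below 0.05 but not called, with a difference of -0.32 ± 0.13 SE (limma adjusted p = 0.418).

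MicroRNA genes outside the interval also lay mostly above 0. Of 263 such probe sets 98 were tested, 1 was called higher and 0 lower, and 27 were higher and 0 lower at an unadjusted limma p below 0.05. Over all tested probe sets 0.0569% were called higher and 0 lower, and 4.71% were higher and 5.82% lower at that unadjusted p. Of the 98 differences 77 were above 0, with a median of 0.15, against 33 of 34 and 0.27 in the interval. Over all tested probe sets 48.6% were above 0, with a median of 0.00. The groups did not overlap, tumour-bearing mice being higher, for 14 of the 98, against 20 of the 34 and 3.28% of all tested probe sets. The gene called was Mir181b-1, with log2 levels of 6.07, 6.54, 6.11, 6.26 and 6.24 in tumour-bearing mice, against 5.42, 5.19 and 5.46 in controls. It differed by 0.89 ± 0.12 SE (limma adjusted p = 0.0498). This call held in 8 of 21 other settings, with limma adjusted p from 0.00329 to 0.631 and differences of 0.81 to 1.07. Of the 8 omissions of 1 animal it held only in that of tumour-bearing mouse 2. The microRNA genes in and outside the interval were not set against each other by a test.

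**Figure D3:**
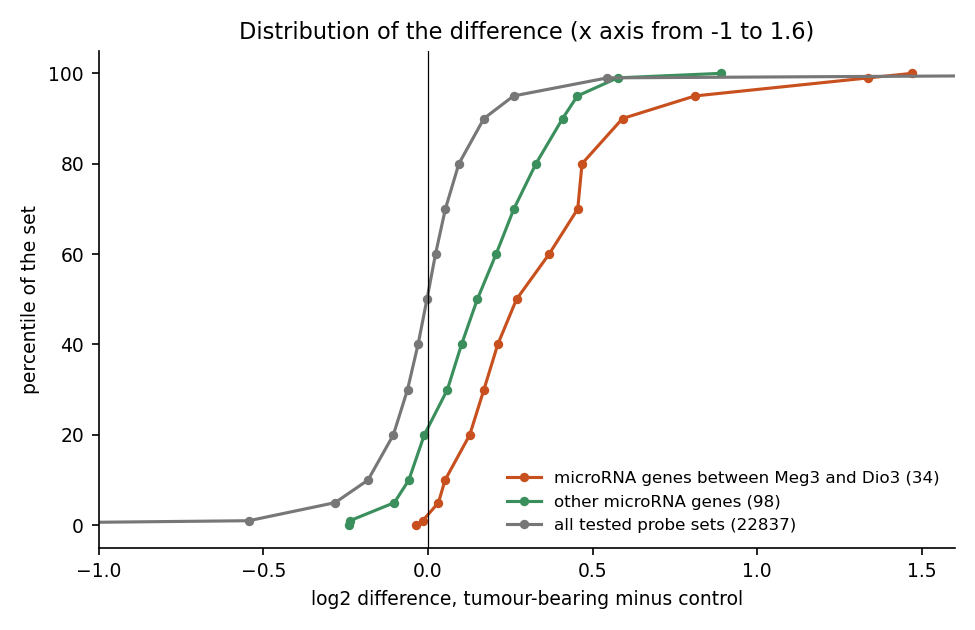
The log2 difference, tumour-bearing minus control, is plotted against its percentile within the 34 tested microRNA genes of the interval, the 98 tested microRNA genes elsewhere and all 22837 tested probe sets. The medians are 0.27, 0.15 and 0.00, and the x axis leaves out the extremes of all probe sets.

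By animal, the median centred log2 value over the 34 tested members was 0.07, 0.12, 0.16, 0.09 and 0.09 in tumour-bearing mice 1 to 5, against -0.24, -0.16 and -0.16 in controls 1 to 3. No single mouse carried the difference: of the 34 members, tumour-bearing mouse 3 was the highest of its group for 11, mouse 2 for 9, mouse 1 for 7, mouse 5 for 5 and mouse 4 for 2. The same value over the other microRNA genes was 0.08, 0.05, -0.02, 0.04 and 0.14 in tumour-bearing mice, against -0.11, -0.12 and -0.07 in controls.

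In the pools, 27 of the 34 tested members were higher in the tumour-bearing pool than in the control pool, against 47.4% of all tested probe sets, and the median difference was 0.23. The 5 risen genes were all higher there. Mir411 had a log2 level of 6.20 in the tumour-bearing pool and 4.96 in the control pool, and Mir369 6.77 and 6.15. Mir134 had 9.26 in the tumour-bearing pool and 8.85 in the control pool, and Mir382 8.34 and 7.96. Mir379 was 5.96 and 5.73, a difference of 0.23 against 1.07 in the single mice, as its control pool lay above each single control. With the pools added as samples, Mir379 differed by 0.87 and no longer passed (limma adjusted p = 0.0826). Rian was 7.67 in the tumour-bearing pool and 7.97 in the control pool, below every single mouse. The pools also differed in pituitary markers, Gh being 9.82 in the tumour-bearing pool and 4.37 in the control pool. Of the 4 tested pituitary markers, 3 were higher in the tumour-bearing pool and 1 was lower. There is 1 pool per group, so these values carry no test.

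**Figure D4:**
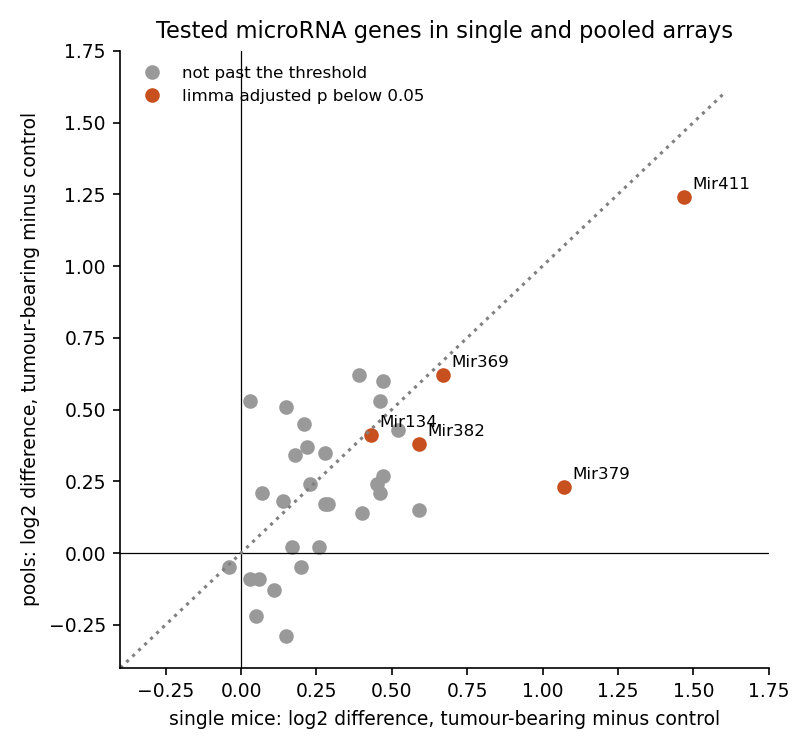
Each point is 1 of the 34 tested microRNA genes, with the log2 difference in single mice (5 tumour-bearing, 3 controls) on the x axis and that between the 2 pools on the y axis; the dotted line marks equal values. The 5 risen genes are in colour; Mir411, at 1.47 and 1.24, is the highest on both axes, and Mir379, at 1.07 and 0.23, lies far below the line.

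The calls depended on single animals while the differences did not move much. Leaving out 1 animal left 1 member called without control 1 (Mir134), 1 without control 2 (Mir379), 0 without control 3, 2 without tumour-bearing mouse 1 (Mir379 and Mir382), 6 without mouse 2, 1 without mouse 3 (Mir411), and 0 without mouse 4 or mouse 5. Over all tested probe sets, 10, 2 and 2 were called without controls 1, 2 and 3. Without tumour-bearing mice 1 to 5 these calls numbered 6, 69, 6, 4 and 5. Without control 3, mouse 4 and mouse 5, 0 members were called by limma. At an unadjusted p below 0.05, 19, 21 and 21 members were then higher and 0 lower. The share of all tested probe sets at that p is not given there, so these counts cannot be read as a result about the members. Over the 8 omissions of 1 animal the log2 difference was 1.35 to 1.54 for Mir411, 0.98 to 1.19 for Mir379, 0.63 to 0.73 for Mir369, 0.56 to 0.64 for Mir382 and 0.37 to 0.47 for Mir134. The median over the members was 0.24 to 0.29.

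**Figure D5:**
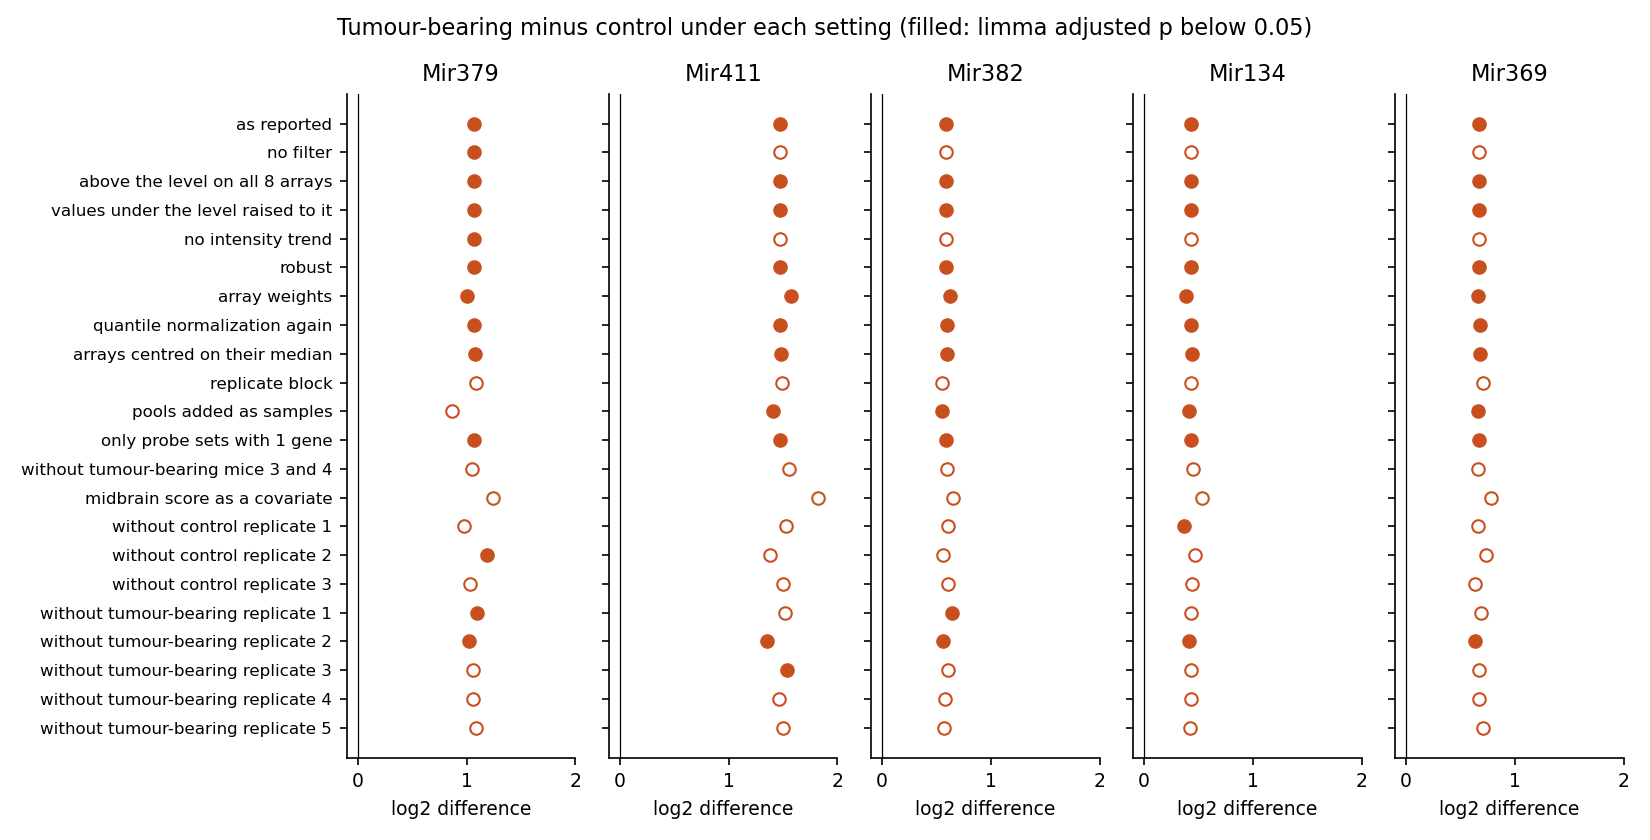
The log2 difference, tumour-bearing minus control, of the 5 risen microRNA genes is shown under each setting, filled where the limma adjusted p was below 0.05. Mir411 ranges from 1.35 to 1.82 and Mir134 from 0.37 to 0.53, all above 0, while the filled points vary with the setting.

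Some markers of neighbouring tissue and of other cells differed between the groups, and others overlapped. The 8 tested midbrain and hindbrain markers, of 10 with a probe set, were all lower in tumour-bearing mice. The linear levels of all 10 summed to 289.7 to 1287 in tumour-bearing mice and 1271 to 1624 in controls. The 7 oligodendrocyte markers summed to 3207 to 4728 in tumour-bearing mice and 4729 to 5024 in controls, and the 7 pituitary markers, with Tshb below the filter level on all 8 arrays, to 207.6 to 1932 and 154.5 to 305.3. The 11 hypothalamic markers summed to 4052 to 5472 in tumour-bearing mice and 3743 to 4068 in controls. Of these 11, 9 were higher and 2 lower. For 4 of them, Npy, Oxt, Avp and Trh, every tumour-bearing mouse exceeded every control, against 3.28% of all tested probe sets. The 6 neuronal markers summed to 13870 to 14260 in tumour-bearing mice and 14210 to 15290 in controls. The 6 microglia markers, with Aif1 below the filter level on all 8 arrays, summed to 432.2 to 543.1 in tumour-bearing mice and 517.3 to 563 in controls, with 4 of 5 tumour-bearing mice below all controls. Of the 5 tested, 4 were lower, while C1qa differed by 0.26, with 4 of 5 tumour-bearing mice above all controls. The 6 astrocyte markers summed to 3483 to 3823 in tumour-bearing mice and 3732 to 4025 in controls. Of these Aqp4, at -0.51, and S100b, at -0.26, were below all controls in 5 of 5 mice. Slc1a3, at 0.13, and Aldh1l1, at 0.10, went the other way. The 6 endothelial markers summed to 990.6 to 1177 in tumour-bearing mice and 915.6 to 1177 in controls. In these 8 lists 0 genes were called. In bulk tissue, fewer cells of a type and less RNA per cell cannot be told apart. The midbrain score was -0.98 to 0.37 in tumour-bearing mice, of which only mouse 2 was above 0, and 0.19 to 0.79 in controls. Score and group went largely together, so a fit that holds both cannot tell them apart. With the score as a covariate the difference was 1.82 for Mir411, 1.24 for Mir379, 0.78 for Mir369, 0.65 for Mir382 and 0.53 for Mir134. Over the 34 tested members, 29 differences were then above 0 with a median of 0.24, against 33 and 0.27 without the score. By limma 0 members and 0 of all tested probe sets were called, with adjusted p from 0.140 to 0.563 for these 5 genes. At an unadjusted p below 0.05, 17 members were higher and 0 lower. Without tumour-bearing mice 3 and 4, whose pituitary markers summed to 1913 and 1932, the log2 difference was 1.55 for Mir411, 1.05 for Mir379, 0.66 for Mir369, 0.60 for Mir382 and 0.45 for Mir134. By limma 0 members and 0 of all tested probe sets were then called. At an unadjusted p below 0.05, 19 members were higher and 0 lower. The share of all tested probe sets at that p is not given for either setting, so these counts of members cannot be set against it. How far midbrain or pituitary tissue enters the result cannot be told from these settings. The part of the oligodendrocyte, neuronal, hypothalamic, microglia, astrocyte and endothelial markers in the result was not tested.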

How the data were processed

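RMA is named in the submitters' processing notes, and the table the authors deposited was read as log2 RMA levels because of the span of its values. The sources used here do not give the RMA version, the probe set definition or whether all 10 arrays were processed together. The method hides a shift of all transcripts together and can compress folds. A platform annotation named 21218 of 35556 probe sets with 1 gene, 1881 with several and left 12457 unnamed here; names and gene order came from RefSeq (GRCm38.p6), which changed 0 symbols. The members, lists and alternatives were chosen with earlier results of these data known.

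Tumour-bearing mice (n = 5) were compared with controls (n = 3) by limma 3.58.1 in R 4.3.3 (lmFit, eBayes with an intensity trend), and p-values were adjusted over 22837 probe sets by Benjamini-Hochberg. Signed values are tumour-bearing minus control. The fit was tested on simulated data. The number of arrays limits the precision. Ratios to long transcripts used a two-sided exact permutation test. For genes of the other lists the brightest probe set of a gene was used. The rule named the called members, the 6 largest other differences, members below the filter, Mir341 and Mir667 as bright ones, and the domain's long genes; Mir666, the neighbours of Mir382 and Mir134, Arc and the remaining members were added after their values were seen. Other settings changed the low-value filter, the probe sets tested, the scaling or the variance model, weighted the arrays, blocked on the replicate number, took a midbrain score (mean centred log2 value of its tested markers) as a covariate, added the pools or left out animals. Figures were drawn with matplotlib 3.10.9.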

Additional observations from a re-analysis of the deposited data

Results flagged for a closer look

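Among 49 genes, the members and the other named genes, the highest or lowest of the 5 tumour-bearing values stood apart from the rest by Dixon's ratio in 2, where chance gives about 1 in 20. For Mir377, tumour-bearing mouse 4 was lowest, at 7.67, with the nearest at 7.75. For Pum2, tumour-bearing mouse 5 was lowest, at 8.87, with the nearest at 8.99.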

How the results depend on the processing

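Of 710 member values under alternatives, 54 lost a call, 10 gained one, the other 646 stayed on their side of the threshold, and 33 were below 0, none of them called. The count of 5 called members became 1 with no filter on low values, 1 with no intensity trend, 10 when the probe sets tested were those with a single gene, 0 without tumour-bearing mice 3 and 4, 0 with the midbrain score and 0 with the replicate block; it was 0 to 6 with 1 animal left out. The cause was not tested. With the replicate block, tumour-bearing mice 4 and 5 have no control of the same number. The difference then rests on mice 1 to 3 of each group, so this setting uses fewer animals than the others do. What the replicate numbers stand for is unknown here. Deviations of same-numbered mice correlated by 0.00 to 0.01, which with 3 controls cannot show whether the numbers mark a pair or a batch. With the block 19 members were higher and 0 lower at an unadjusted limma p below 0.05. The share over all probe sets is not given, so this count cannot be set against it. Array weights gave 7 calls, the other settings 4 to 6. The count of 20 members without overlap was 11 with the pools as samples, and 20 to 23 with 1 animal left out. Apart from changes in which members pass the filter, leaving out a mouse cannot lower this count and adding arrays cannot raise it. The range with 1 animal left out is thus no check on the count. Differences above 0 numbered 29 to 34. The median difference was 0.24 to 0.29 throughout. Over all probe sets 13 calls became 0 to 72. They numbered 5 with no filter on low values, 4 with no intensity trend and 72 with single-gene probe sets. With array weights they were 24. They were 0 with the midbrain score, with the block or without tumour-bearing mice 3 and 4.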
